A study of Mus musculus with 8 samples.

Results

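The circadian clock genes described here, Arntl, Clock, Per1, Per2, Per3, Cry1, Cry2, Nr1d1, Nr1d2 and Dbp, were examined in the RNA of mouse mammary epithelium. The members were taken by gene name from a table of expression values, and all 10 were found among its 55933 genes. The epithelium came from female C57BL/6 mice at pregnancy day 14.5, 4 of them controls and 4 with a conditional knockout of Bmpr1a (cKO), and each mouse gave 1 RNA-seq library. The cKO mice carried K14-rtTA, teto-Cre and Bmpr1a fl/fl, so that the K14 promoter, which is active in myoepithelial cells, the contractile outer layer of the gland, drives rtTA, and rtTA bound to doxycycline (Dox) from the drinking water switches on Cre. Littermates served as controls. The labels call the controls WT and give neither their alleles nor their litters. Whole glands were digested with collagenase and hyaluronidase and the cells were not sorted by layer, so each value is an average over all cells of the preparation. Fewer cells of a type and less RNA per cell cannot be told apart in such values.

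The circadian clock is a feedback loop of transcription that runs in nearly every mammalian cell and keeps a rhythm of about a day. ARNTL (also called BMAL1) and CLOCK bind E-boxes as a pair and switch on the Period (Per) and Cryptochrome (Cry) genes, whose proteins then repress that pair. A further loop runs through NR1D1 and NR1D2 (REV-ERB alpha and beta), which repress Arntl, while DBP acts on D-boxes and is a direct output of the loop. In the mouse, transcripts of Arntl and of Nr1d1, Per and Dbp peak at opposite times of day in most tissues, so their levels depend on the hour at which a tissue is taken. The mice were kept under light and dark cycles, and no label gives the hour at which a gland was collected. The comparisons were 2: cKO against control mice, and replicates 1 and 2 against replicates 3 and 4 of both groups. The latter sets were chosen with earlier results of these libraries known, as a possible sign of collection time, and no label describes them as a batch.

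Expression is given as FPKM, the number of fragments on a gene divided by its length in kilobases and scaled to library depth, which is a level per length. The libraries held 16123108 to 19896988 reads on genes. Bmpr1a itself was not lower in the libraries labelled cKO, with 8.74 to 11.7 FPKM in the control and 10.2 to 12.03 FPKM in the cKO libraries (p = 0.257 in a two-sided exact permutation test, which with 4 against 4 allows no p under 0.0286). The FPKM covers the whole gene and the deletion is driven in 1 cell layer, so this value does not check the labels, and every direction between groups below is one between libraries labelled control and cKO. Luminal markers (Krt8, Krt18, Epcam, Elf5, Cldn3) summed to 3807 to 4894 FPKM in the control and 3727 to 5072 FPKM in the cKO libraries. Myoepithelial markers (Krt14, Krt5, Acta2, Myh11, Cnn1) summed to 1584 to 2159 and 1484 to 2047 FPKM, so both epithelial layers were present. Of these markers only Elf5 did not overlap between the groups, at 17.8 to 24.7 and 31.9 to 49.8 FPKM, beside 10.7% of all genes tested. Krt14 was at 665 to 850 and 490 to 666 FPKM. Leukocyte markers (Ptprc, Cd3e, Cd79a, Adgre1, Csf1r) summed to 12.8 to 26.8 FPKM in the control and 7.28 to 12.4 FPKM in the cKO libraries, endothelial markers to 66.8 to 77.0 and 47.9 to 74.7 FPKM, fibroblast markers to 282 to 578 and 195 to 455 FPKM, adipocyte markers to 78.4 to 121 and 101 to 135 FPKM, and red cell markers to 19.0 to 25.96 and 13.1 to 24.0 FPKM. Of the adipocyte sum, Fabp4 alone gave 77.0 to 128 FPKM, while Adipoq was at 0.0836 to 0.562 FPKM in the control and 0.274 to 1.99 FPKM in the cKO libraries. Cfd did not overlap between the groups, at 1.19 to 2.57 and 3.26 to 23.9 FPKM (1.90 on the log2 scale, adjusted p = 0.128), and the part of adipocyte RNA in the clock gene values was not tested. The adipocyte markers Plin1 and Lep stayed under 0.5 FPKM in all 8 libraries, and the liver gene Alb, read as a check of the gene names, reached 0.0269 FPKM at most.

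Clock factors act through short DNA elements near start sites, and the sequences below show those found close to the members. In GRCm38, the genes on the plus strand are Arntl (chr7:113207465-113314126), Per1 (chr11:69095217-69109960) and Dbp (chr7:45705088-45710203), and those on the minus strand are Clock (chr5:76209868-76304792), Per2 (chr1:91415982-91459324), Per3 (chr4:151003652-151044665), Cry1 (chr10:85131700-85185064), Cry2 (chr2:92403646-92434043), Nr1d1 (chr11:98767932-98775333) and Nr1d2 (chr14:18204054-18239127). Promoter windows from RefSeq (GRCm38.p6, 250 bases before to 50 after a start site) were at hand for 9 of the 10 members, 13 windows in all. Each was searched on both strands for the E-box CACGTG of the ARNTL and CLOCK pair, the D-box TTATGTAA of DBP and its relatives, the ROR element TAGGTCA bound by NR1D1 and the ROR receptors, and the cyclic AMP response element TGACGTCA. No 2 matches overlapped. An E-box was found in 1 of the 2 Per1 windows and in the Cry1 window, which is 2 of the 13 windows. The Per3 window held 2 D-boxes, and 1 of the 2 Arntl windows held a ROR element that begins at base 31 after the start site. Across all 32851 windows of this length the E-box was found in 7.15%, the D-box in 0.938%, the ROR element in 2.61% and the cyclic AMP response element in 1.79%, the last in none of the members' windows. Shown here, 5′ to 3′ on the strand of the gene with the motif in capitals, are 200 bases that end 51 bases before the start site, for Per1 (chr11:69098699-69098898, plus strand, in an intron of a longer Per1 transcript), Cry1 (chr10:85185105-85185304, minus strand) and Per3 (chr4:151044716-151044915, minus strand).
Per1: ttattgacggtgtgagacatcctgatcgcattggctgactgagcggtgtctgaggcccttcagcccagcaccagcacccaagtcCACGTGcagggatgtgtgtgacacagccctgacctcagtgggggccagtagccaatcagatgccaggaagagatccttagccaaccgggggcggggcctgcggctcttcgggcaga
Cry1: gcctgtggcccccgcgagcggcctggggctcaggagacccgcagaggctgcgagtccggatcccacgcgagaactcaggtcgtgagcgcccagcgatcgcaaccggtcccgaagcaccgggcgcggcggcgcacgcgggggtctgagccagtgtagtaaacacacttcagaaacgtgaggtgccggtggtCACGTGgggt
Per3: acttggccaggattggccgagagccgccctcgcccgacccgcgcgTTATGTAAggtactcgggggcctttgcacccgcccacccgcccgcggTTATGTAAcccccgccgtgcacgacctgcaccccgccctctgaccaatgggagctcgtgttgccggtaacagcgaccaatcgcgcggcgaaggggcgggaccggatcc
The E-box begins 166 bases before the start site in Per1 and 60 bases before it in Cry1, and the Per3 D-boxes begin 205 and 158 bases before it. A match is a description of these letters, and binding was not measured.

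The clock was expressed in every library, at levels that spanned a wide range from gene to gene. Cry1, a repressor of the ARNTL and CLOCK pair, was the most abundant member with 25.4 ± 1.33 FPKM (SD, n = 8 over both groups). Nr1d2 (11.1 ± 2.43), Nr1d1 (10.8 ± 1.84), Per1 (8.32 ± 1.81), Per2 (6.87 ± 1.62) and Arntl (5.68 ± 0.453) followed, then Clock (3.36 ± 0.583), Cry2 (2.46 ± 0.432), Per3 (1.05 ± 0.171) and Dbp (0.324 ± 0.101 FPKM). In this order the ranges over libraries of neighbouring genes were apart for Cry1 and Nr1d2, Arntl and Clock, Cry2 and Per3, and Per3 and Dbp. The other neighbours overlapped, and Nr1d2 exceeded Nr1d1 in 3 of 8 libraries. Npas2, a relative of Clock that can take its place beside ARNTL, stood at 7.85 ± 1.37 FPKM and was thus above Clock per length in these cells, with 6.41 FPKM or more in each library against 4.23 or less for Clock. Ratios within a library compare arms of the loop that peak at opposite times. Nr1d1 was 1.62 to 2.72 times, Per1 1.13 to 1.94 times, Per2 0.709 to 1.605 times and Dbp 0.0387 to 0.0960 times the level of Arntl.

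**Figure D1:**
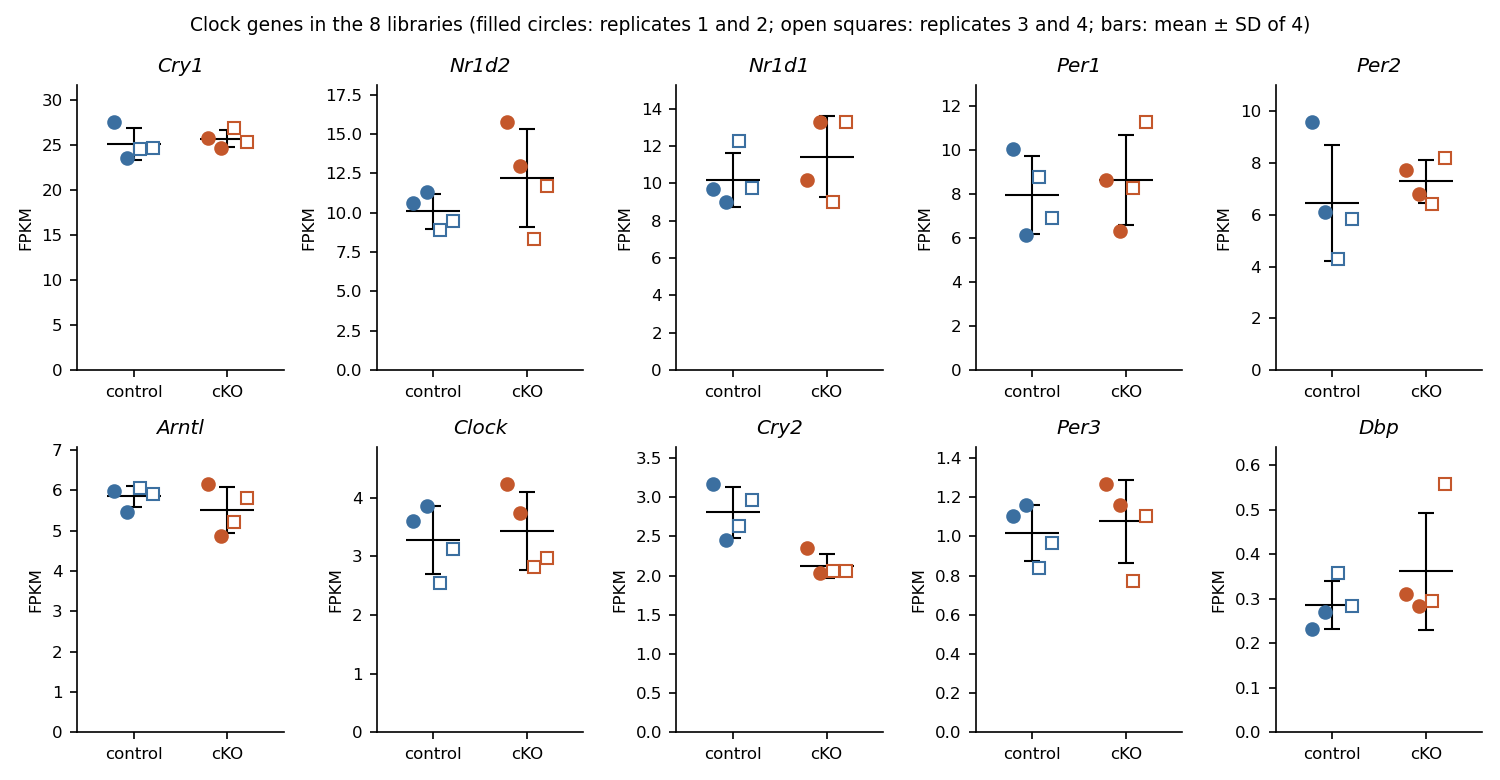
FPKM of the 10 clock genes in each of the 8 libraries, ordered by mean level, with control libraries in blue and cKO libraries in orange; filled circles are replicates 1 and 2, open squares replicates 3 and 4, and bars the mean ± SD of 4 libraries. The groups overlap in every gene except Cry2, where control libraries lie between 2.46 and 3.17 and cKO libraries between 2.03 and 2.35 FPKM.

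The question of the group comparison was whether clock gene levels differed after deletion of Bmpr1a in the myoepithelium. None of the 9 members that passed a filter on low values (a mean of at least 0.5 FPKM, which Dbp missed) was called at an adjusted p under 0.05 over the 15143 genes tested (limma on log2(FPKM + 1)), where 0.892% of all genes were called. At an unadjusted p under 0.05, 1 of 9 members passed, Cry2, beside 16.4% of all genes. The median difference of the members was 0.05 on the log2 scale, beside 0.00072 over all genes tested. Of the members 7 were positive and 2 negative, where 7603 of the 15143 genes tested were positive. Clock, Per1 and Per3, which are among the 7, turned negative with some libraries left out.

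Arntl and Clock encode the activating pair. Arntl stood at 5.98, 5.47, 6.05 and 5.90 FPKM in control replicates 1 to 4 and at 6.16, 4.88, 5.21 and 5.81 FPKM in cKO replicates 1 to 4. The groups overlapped, with the lowest and the highest value both among the cKO libraries, and the difference was -0.08 on the log2 scale (95% interval -0.25 to 0.10, adjusted p = 0.675). Clock measured 3.59, 3.85, 2.54 and 3.12 FPKM in the control and 4.23, 3.74, 2.81 and 2.97 FPKM in the cKO libraries. Replicates 1 and 2 were the higher ones in both groups, and the group difference was 0.05 (95% interval -0.25 to 0.35, adjusted p = 0.886).

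The Period genes encode repressors that also take up outside signals, Per1 and Per2 being induced within the hour by light and stress pathways in many cells. Per1 was at 10.1, 6.16, 8.79 and 6.93 FPKM in the control and 8.67, 6.32, 8.31 and 11.3 FPKM in the cKO libraries. It varied within each group, and the group difference was 0.10 (95% interval -0.30 to 0.50, adjusted p = 0.828). Per2 was at 9.59, 6.10, 4.29 and 5.85 FPKM in the control and 7.74, 6.79, 6.40 and 8.20 FPKM in the cKO libraries. Its range was the widest of the tested members, the highest library being 2.23 times the lowest, and both of these were control libraries. The difference was 0.19 (95% interval -0.23 to 0.61, adjusted p = 0.663). It was 0.04 without control replicate 3 and 0.38 without control replicate 1, the latter past an unadjusted p of 0.05 (adjusted p = 0.269). Per3 was low, with 1.11, 1.16, 0.839 and 0.965 FPKM in the control and 1.27, 1.16, 0.773 and 1.10 FPKM in the cKO libraries, and the difference was 0.04 (95% interval -0.19 to 0.27, adjusted p = 0.889).

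The Cryptochromes are the partners of PER in repression. Cry1 was the steadiest member, at 27.6, 23.5, 24.6 and 24.7 FPKM in the control and 25.8, 24.7, 26.9 and 25.4 FPKM in the cKO libraries. Its highest library was 1.17 times its lowest, and the group difference was 0.03 (95% interval -0.11 to 0.18, adjusted p = 0.843). Cry2 was at 3.17, 2.46, 2.63 and 2.96 FPKM in the control and 2.35, 2.03, 2.05 and 2.05 FPKM in the cKO libraries. It was the single member whose groups did not overlap, which held for 10.7% of all genes tested, and for 4.6% with the cKO libraries lower. The cKO mean, 2.12 ± 0.153 FPKM, was 75.7% of the control mean, 2.80 ± 0.319 FPKM (SD, n = 4 each). The difference was -0.28 on the log2 scale (SE 0.08, 95% interval -0.47 to -0.10) with an unadjusted limma p of 0.00722 and an adjusted p of 0.141 over all genes. Of all genes, 7.53% passed an unadjusted p under 0.05 in the lower direction. Taken in replicates 1 and 2 alone it was -0.25, and in replicates 3 and 4 alone -0.31. Under the alternatives run, the difference stayed negative and the adjusted p lay between 0.0526 and 0.289. The leukocyte marker sums given above did not overlap between the groups either and were lower in the cKO libraries, and their part in the Cry2 values was not tested. Of the exon bases of Cry2, 4.67% overlap the opposite-strand gene D930015M05Rik, for which no library had more than 13 reads.

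**Figure D2:**
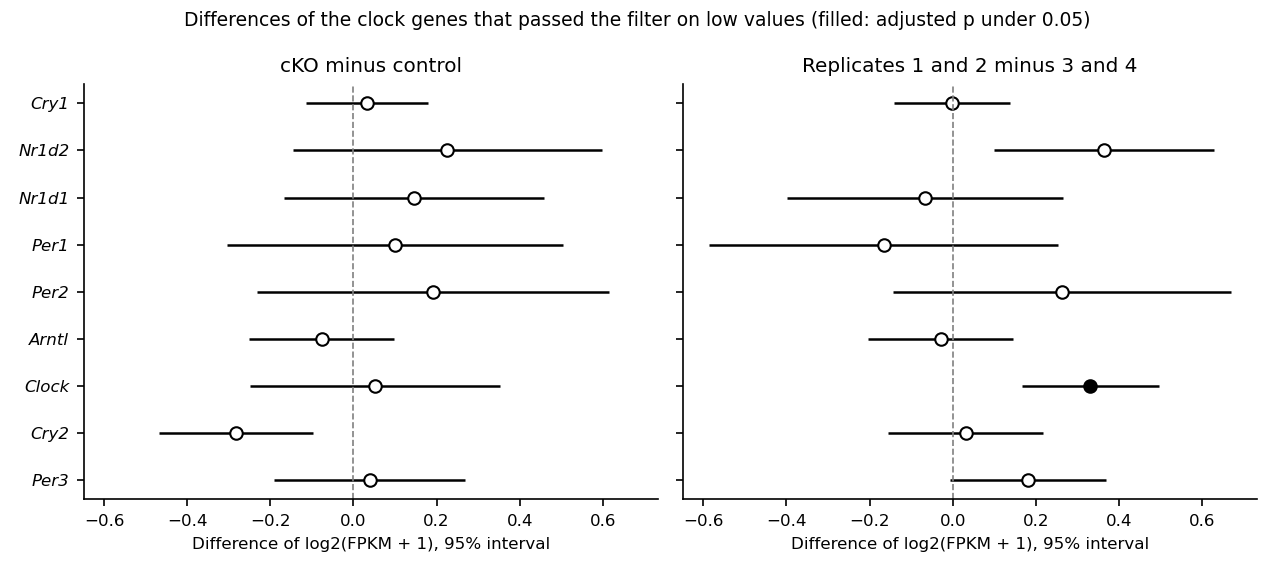
Differences of log2(FPKM + 1) with 95% intervals for the 9 members tested, cKO minus control on the left and replicates 1 and 2 minus 3 and 4 on the right, with filled points for an adjusted p under 0.05. Of the group differences only that of Cry2 (-0.28) has an interval that leaves out 0, and on the right those of Clock (0.33) and Nr1d2 (0.36) do.

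Nr1d1 and Nr1d2 encode the nuclear receptors of the second loop, which repress Arntl and lipid and metabolic genes. Nr1d1 was at 9.68, 8.99, 12.3 and 9.77 FPKM in the control and 10.2, 13.3, 9.005 and 13.3 FPKM in the cKO libraries. The groups overlapped, and the difference was 0.15 (95% interval -0.17 to 0.46, adjusted p = 0.655). Of its exon bases, 8.55% are shared with Thra on the other strand, which had up to 564 reads in a library. Nr1d2 was at 10.6, 11.3, 8.93 and 9.46 FPKM in the control and 15.8, 13.0, 8.34 and 11.7 FPKM in the cKO libraries. The highest and the lowest of its 8 values were both cKO libraries, and the difference, 0.23, had an interval that held 0 (95% interval -0.15 to 0.60, adjusted p = 0.544). It was 0.10 without cKO replicate 1 and 0.38 without cKO replicate 3, the latter past an unadjusted p of 0.05 (adjusted p = 0.167). In replicates 1 and 2 alone that difference was 0.36, and in replicates 3 and 4 alone 0.10.

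Dbp, the output factor that swings most widely over the day in many mouse tissues, was close to the floor of the data. It measured 0.231, 0.270, 0.359 and 0.285 FPKM in the control and 0.312, 0.284, 0.295 and 0.558 FPKM in the cKO libraries, which rested on 12 to 31 reads. A single cKO library, replicate 4, stood above the other 7, and the group means of 0.286 and 0.362 FPKM did not differ beyond the spread (p = 0.371, two-sided exact permutation test). Of its exon bases, 18.0% are shared with Sphk2 on the other strand, which had up to 776 reads in a library, and strand-specific counting is not stated.

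Of 20 further clock genes (paralogs, ROR receptors, repressors, D-box factors, kinases, ubiquitin ligases and outputs), 17 passed the filter, and none was called in either comparison at an adjusted p under 0.05. At an unadjusted p under 0.05, 5 of the 17 passed between the groups, 3 higher and 2 lower in cKO libraries, beside 16.4% of all genes, 8.85% higher and 7.53% lower. Npas2 was higher in cKO libraries by 0.31 on the log2 scale (adjusted p = 0.198), with 6.41 to 7.997 FPKM in the control and 7.19 to 10.03 FPKM in the cKO libraries. Rora, which activates Arntl, differed by 0.38 (adjusted p = 0.250), and Hlf, a relative of Dbp, by 0.31 (adjusted p = 0.240). On the lower side were the D-box repressor Nfil3, by -0.18 (adjusted p = 0.274), and Ciart, a repressor of the ARNTL and CLOCK pair, by -0.22 (adjusted p = 0.212). The groups did not overlap for 2 of the 17, beside 10.7% of all genes. These were Ciart, at 1.91 to 2.43 FPKM in the control and 1.58 to 1.81 FPKM in the cKO libraries, and Csnk1d, a kinase that phosphorylates PER proteins, at 61.7 to 65.7 and 58.6 to 59.2 FPKM. Csnk1d, the transcriptional repressor Bhlhe40 (28.0 FPKM on average) and the kinase Csnk1e (26.4 FPKM) had mean levels above those of all 10 members. Rorb and Fbxl21 stayed under 0.5 FPKM in all libraries, and Btrc missed the filter on its mean.

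The comparison of replicate sets asked whether clock genes separated replicates 1 and 2 from replicates 3 and 4, as they could if the glands had been taken at different hours. Of the 9 members tested, 1 was called, Clock, where 4.26% of all genes tested were called and 1.24% with replicates 1 and 2 higher. At an unadjusted p under 0.05, 2 of 9 members passed, Clock and Nr1d2, both higher in replicates 1 and 2, beside 24.2% of all genes and 10.4% in that direction. The sets did not overlap for Clock and Per3, which is 2 of 9 and both higher in replicates 1 and 2, beside 12.8% of all genes and 5.98% in that direction.

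Clock was at 3.85 ± 0.273 FPKM in replicates 1 and 2 and 2.86 ± 0.247 FPKM in replicates 3 and 4 (SD, n = 4 each), with the same direction in the control (0.31) and the cKO libraries (0.36). The difference was 0.33 on the log2 scale (SE 0.07, 95% interval 0.17 to 0.50, adjusted p = 0.0469). This call was lost when any 1 of the 8 libraries was left out (adjusted p 0.0748 to 0.144), where the difference stayed between 0.29 and 0.38. Nr1d2 differed by 0.36 (SE 0.11, 95% interval 0.10 to 0.63, adjusted p = 0.108) and Per3 by 0.18 (95% interval -0.01 to 0.37, adjusted p = 0.223). The genes of opposite phase, Arntl on the one side and Nr1d1, Per1 and Per2 on the other, were not called between the sets. Arntl differed by -0.03 (95% interval -0.20 to 0.15, adjusted p = 0.851), Nr1d1 by -0.07 (-0.40 to 0.27, adjusted p = 0.820), Per1 by -0.17 (-0.59 to 0.25, adjusted p = 0.623) and Per2 by 0.26 (-0.14 to 0.67, adjusted p = 0.405). Cry1 differed by -0.0019 (-0.14 to 0.14, adjusted p = 0.989) and Cry2 by 0.03 (-0.15 to 0.22, adjusted p = 0.847). Dbp, with 0.274 ± 0.0333 FPKM in replicates 1 and 2 and 0.374 ± 0.127 FPKM in replicates 3 and 4, was not tested in this fit. A second reading at the scale of the same FPKM sum in each library, which moved the median of all genes from -0.01 to 0.09, called 2 members, Clock (0.44, adjusted p = 0.0198) and Nr1d2 (0.49, adjusted p = 0.0309). At that scale 11.7% of all genes were called, 10.6% with replicates 1 and 2 higher.

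Gene length moved with the set difference over the whole table, and Clock is long. Its gene length in the table is 13727 bases, while the other members range from 2993 bases (Dbp) to 9608 bases (Per3). Among the 664 tested genes of 12000 bases or more, the median difference was 0.14 and 88.7% were higher in replicates 1 and 2, while for 1882 genes of 1000 to 2000 bases the median was -0.11 and 28.6% were higher. Of the long genes, 36 were called higher and 0 lower in replicates 1 and 2, and 4.67% had a difference at least as large as that of Clock. With the length trend of each library removed, an alternative added after the values were seen, the difference of Clock was 0.20 with an adjusted p of 0.158, and 1 gene in the whole table was called in place of 645. The luminal and myoepithelial markers also differed between the sets, summing to 3727 to 4206 and 1484 to 1746 FPKM in replicates 1 and 2 and to 4602 to 5072 and 2040 to 2159 FPKM in replicates 3 and 4. Of these 10 markers, 6 were called lower in replicates 1 and 2, beside 3.02% of all genes. Krt8, Krt18, Cldn3 and Krt14 have 1000 to 2000 bases, a class in which 163 of 1882 genes were called lower. With the length trend removed, 0 genes were called lower. All 5 fibroblast and all 5 endothelial markers were higher in replicates 1 and 2, as 7248 of the 15143 genes tested were. Their medians were 0.24 and 0.19, and 0 were called. The part of these markers in the difference of Clock was not tested.

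**Figure D3:**
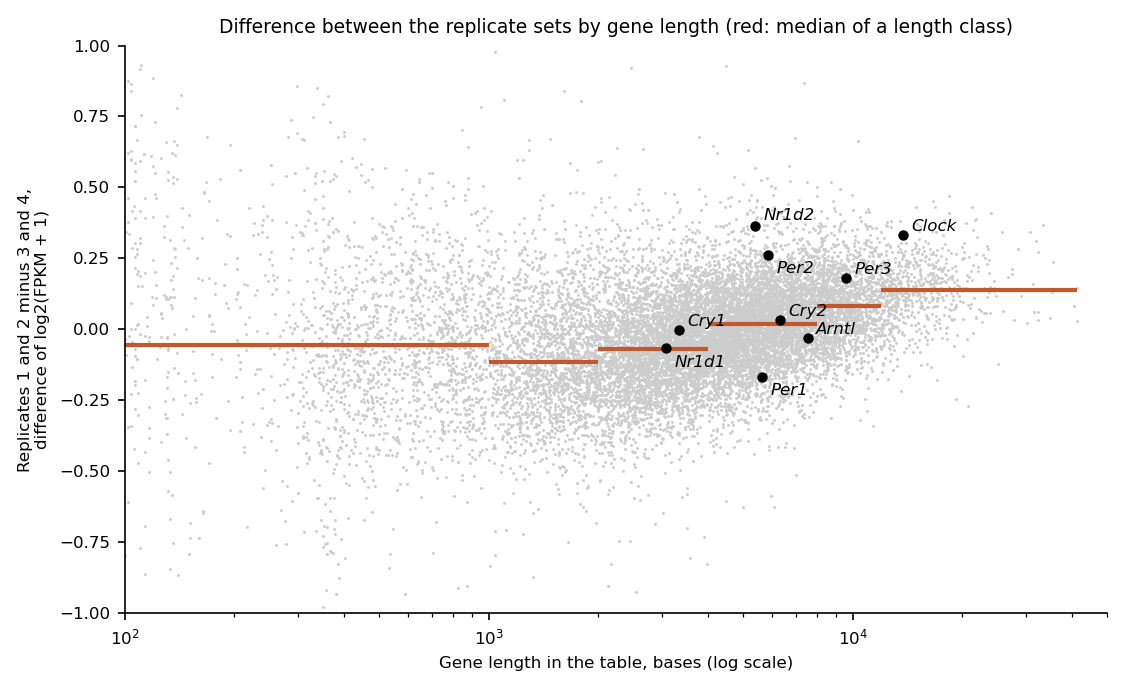
Difference of log2(FPKM + 1) between replicates 1 and 2 and replicates 3 and 4 against gene length on a log axis, for the tested genes in grey, with the 9 members tested in black and red lines for the median of each length class. The class medians run from -0.05 below 1000 bases and -0.11 at 1000 to 2000 bases to 0.14 at 12000 bases or more, and Clock, at 0.33, lies above the median of the longest class; 46 genes beyond the vertical range and 229 outside the horizontal range are not drawn.

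Whether the set difference itself differed between control and cKO mice was tested as an interaction with 2 mice in each cell. None of the 9 members was called and none passed an unadjusted p under 0.05. Over all 15143 genes 0 (0.0%) were called with limma and 0 with limma-voom on recovered reads, while 653 (4.31%) passed unadjusted, and 16 were called with no filter on low values, none of them a member. The value farthest from 0 was that of Per2, at -0.53 (95% interval -1.28 to 0.23). Per2 was 0.53 higher in replicates 1 and 2 of the control mice and 0.00025 higher in those of the cKO mice. Unadjusted, Per2 passed without control replicate 2 (-0.81, adjusted p = 0.9999) and Nr1d2 without cKO replicate 4 (0.48, adjusted p = 0.734).

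Members differed in how much they varied between mice of 1 group. The median within-group SD of the 9 tested members was 0.21 on the log2 scale, against 0.15 over all genes tested, and 5 of 9 lay above the latter. It was 0.31 for Per2, 0.30 for Per1, 0.27 for Nr1d2, 0.22 for Nr1d1 and 0.21 for Clock, and 0.13 for Per3, 0.10 for Arntl, 0.10 for Cry2 and 0.08 for Cry1. This scale compresses genes of low level. On log2(FPKM) without a pseudocount the SD was 0.36 for Per2, 0.33 for Per1, 0.29 for Nr1d2, 0.27 for Clock, 0.27 for Per3, 0.24 for Nr1d1, 0.14 for Cry2, 0.12 for Arntl and 0.08 for Cry1, beside a median of 0.19 over all genes tested. On both scales Per2, Per1 and Nr1d2 had the largest SD of the 9 and Cry1, Arntl and Cry2 the smallest. The ratio of the highest to the lowest library had a median of 1.64 over the members and 1.52 over all genes.

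Per1 was lowest in replicate 2 of both groups and highest in cKO replicate 4, as 3.94% of all genes tested were. Its values were set beside those of immediate early genes, which cells switch on within minutes of stimulation or handling. Of 10 such genes, 8 were lowest in control replicate 2, 7 in cKO replicate 2 and 9 highest in cKO replicate 4, and 7 matched Per1 in all 3 respects, where all genes tested gave 27.2%, 21.6% and 26.7% for the single features. Other lists held parts of the pattern. Of 10 glucocorticoid-responsive genes, 7 were lowest in control replicate 2, 6 in cKO replicate 2 and 2 highest in cKO replicate 4, with 0 matching in all 3, and of 9 heat and cold response genes the counts were 3, 2 and 7, with 2 matching in all 3. Junb, for example, ranged from 304 to 385 FPKM in the control and from 245 to 400 FPKM in the cKO libraries, and Jun from 170 to 210 and from 141 to 238 FPKM. Per2 was also highest in cKO replicate 4 but lowest in replicate 3 of both groups. Per1 differed from the 10 immediate early genes in control replicate 1, where it was highest of the controls and none of them was. In the other lists some genes, such as Errfi1 and Hspa1b, were highest there too, and others, such as Mt1 and Hspa8, were not. The match of Per1 with the immediate early genes was seen after the values were known. Its part in the spread of Per1 was not tested. None of the 10 immediate early genes passed even an unadjusted p under 0.05 between the groups (median difference -0.07). Between the replicate sets all 10 were lower in replicates 1 and 2, as 7895 of the 15143 genes tested were. Their median was -0.24, beside -0.0099 over all genes and -0.07 over genes of 2000 to 4000 bases, the class of Jun, Junb, Zfp36 and Atf3. Of the 10, 2 passed unadjusted in that direction, beside 2089 of the 15143 genes, and 0 adjusted. The part of gene length in these differences was not tested.

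**Figure D4:**
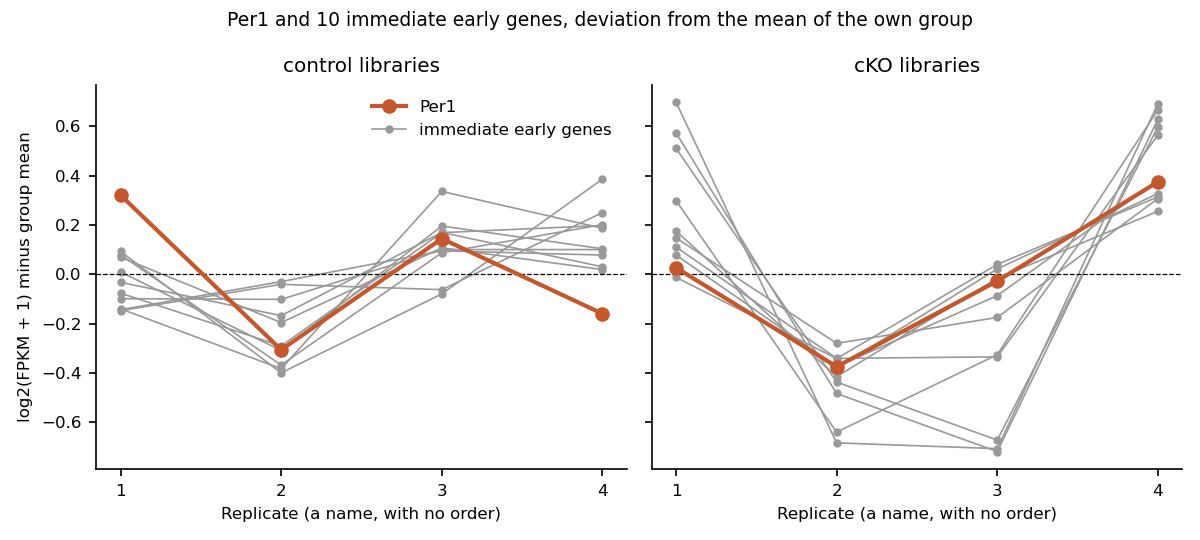
Deviation of log2(FPKM + 1) from the mean of the own group in each library, for Per1 in orange and 10 immediate early genes in grey, control libraries on the left and cKO libraries on the right; lines join the values of a gene and replicates have no order. Per1 is lowest in replicate 2 on both sides and highest in cKO replicate 4, where 9 of the 10 grey genes are also highest.

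Genes that respond to hormones and temperature, which also set clock phase in tissues, were read from fixed lists. Of 10 glucocorticoid-responsive genes, 5 were higher and 1 lower in cKO libraries at an unadjusted p under 0.05, beside 8.85% and 7.53% of all genes, with a median difference of 0.22, and 0 were called after adjustment. The metallothionein Mt1 was at 418 to 707 FPKM in the control and 630 to 1573 FPKM in the cKO libraries (0.95 on the log2 scale, adjusted p = 0.152), and was called lower in replicates 1 and 2 by -0.72 (adjusted p = 0.0439), beside 3.02% of all genes. This call was lost without any 1 of the 8 libraries (adjusted p 0.0523 to 0.133). Of 9 heat and cold response genes, 5 were higher in cKO libraries at an unadjusted p under 0.05, with a median of 0.53, and 0 were called after adjustment. Without cKO replicate 4, the highest cKO library for 7 of the 9, the median was 0.29, with 5 higher and 1 lower unadjusted. The groups did not overlap for 2 of the 9, beside 10.7% of all genes. These were the chaperone Hsp90aa1, at 211 to 292 and 306 to 466 FPKM (0.52, adjusted p = 0.149), and the co-chaperone Dnajb1, at 37.6 to 45.3 and 48.4 to 121 FPKM (0.60, adjusted p = 0.297, and 0.29 without cKO replicate 4). The cold-induced genes Cirbp (-0.31, adjusted p = 0.331) and Rbm3 (-0.01, adjusted p = 0.963) were the 2 with a negative difference. Dnajb1, Cirbp and Rbm3 are named here after their values were seen.

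The genes whose pattern was most like that of Dbp and Arntl were sought among the 12923 genes with a mean of at least 1 FPKM. The measure was the Pearson correlation of log2(FPKM + 1) over the 8 libraries with group means subtracted, as a description. What depth and base composition of the libraries add to it was not tested. For Dbp the closest were Dalrd3 (r = 0.99), Arhgap33 (0.98), Nab2 (0.98) and Rogdi (0.98), in a gene with 12 to 31 reads a library whose value in cKO replicate 4 stands apart from the other 7, and what the correlations owe to that library was not tested. For Arntl they were Plk2 (0.99), Rnf103 (0.98), Sox17 (0.97) and Csrnp1 (0.96). No member and no further clock gene was among the 10 closest of either. Both lists hold the highest of the correlations with 12923 genes over only 8 libraries, so their size alone shows no shared regulation. The correlation of Arntl was 0.04 with Nr1d1, 0.70 with Per1, 0.22 with Per2 and -0.01 with Clock, and that of Dbp was 0.58 with Nr1d1, 0.56 with Per1 and 0.43 with Arntl.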

How the data were processed

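RNA-seq was performed with 1 library per mouse. The authors checked reads with FastQC, mapped them with Hisat2 and deposited FPKM per gene. The paper names GRCm38; the submitters' processing notes name mm9, StringTie 1.3.3b and featureCounts 1.5.0-p3. Of the 55933 gene IDs, 55480 are in GENCODE vM21, 99.7% of them with the same coordinates, so GRCm38 is used here. FPKM times gene length, divided by 1 step for each library, gave whole reads for 100% of values (tolerance 0.01 of a read). The steps show that the deposited FPKM already carry median-of-ratios size factors.

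Genes had to average 0.5 FPKM or more over the 8 libraries, which left 15143, and log2(FPKM + 1) was fitted with limma 3.58.1 in R 4.3.3 (trend, Benjamini-Hochberg adjustment, two-sided), by group, by group and replicate set, and with their interaction. A fold change on this scale understates that of low genes. The fit was tested on simulated data. Dbp and Bmpr1a were compared by exact permutation of FPKM with scipy 1.17.1. Alternatives were a pseudocount of 0.1, the same FPKM sum in each library, no filter, a mean of at least 1, limma-voom on recovered reads, each library left out, and blocks by replicate number or set; removal of the length trend was added after the values were seen. Named genes are the 10 members, the further clock genes tested, those of the other lists called or among the 4 with the highest mean, and the 10 most like Dbp and Arntl. Members, gene lists and the replicate sets were chosen with earlier results of these data known. With 16123108 to 19896988 reads on genes, precision is set by the spread between 4 mice a group, and for Dbp and Fbxl21 also by their few reads.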

Additional observations from a re-analysis of the deposited data

Results flagged for a closer look

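Each of 62 sets of 4 libraries, the clock and further clock genes and Bmpr1a in each group, was searched for a library far from the other 3, and 4 were found, where chance alone flags about 1 in 20 sets. Cry2 was highest in cKO replicate 1, at 2.35 FPKM, while the other cKO libraries lay between 2.03 and 2.05 FPKM. Without that library the group difference of Cry2 was -0.32. Dbp was highest in cKO replicate 4, at 0.558 FPKM, on 31 reads, with the other cKO libraries between 0.284 and 0.312 FPKM. Npas2 was highest in control replicate 1, at 7.997 FPKM, with 6.41 to 6.64 FPKM in the other control libraries. Fbxl21 was highest in cKO replicate 2, at 0.0759 FPKM, which rested on 6 reads. No explanation of these values was tested.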

How the results depend on the processing

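No clock gene was called between the groups under any alternative. Over all genes, 135 (89 higher, 46 lower) became 10 with no filter, 252 with limma-voom, 442 with the set block, 50 with the replicate block, 680 with limma-voom and the replicate block, 55 with the length trend removed and the replicate block, and 0 to 78 with a library left out; with the same FPKM sum 70 were higher and 62 lower. Between the sets, 645 (188 higher, 457 lower) became 1765 (1603 higher, 162 lower) with the same sum, 110 with no filter, 998 (418 higher, 580 lower) with limma-voom, 1 with the length trend removed and 0 to 497 with a library left out. The count of clock genes, 1, became 2 with the same sum and 0 with no filter, with the length trend removed and without any 1 library. The causes were not tested, beyond the fewer samples or other genes that an alternative holds.

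Differences that were not called changed sign as follows. With the same sum, Cry1 was -0.027 between the groups, and Arntl 0.090, Cry1 0.13 and Nr1d1 0.061 between the sets; with the length trend removed, Cry1 was 0.044 and Cry2 -0.0041 between the sets. With a library left out, the group difference ranged from -0.036 to 0.12 for Clock, -0.025 to 0.22 for Per1 and -0.0057 to 0.11 for Per3, and the set difference from -0.091 to 0.023 for Arntl, -0.056 to 0.033 for Cry1, -0.016 to 0.092 for Cry2 and -0.20 to 0.023 for Nr1d1.

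Replicate numbers gave correlations of 0.137, 0.1096, 0.116 and 0.0797 between same-numbered deviations, and 3 of 8 libraries correlated best with their own number, so the numbers were not taken to pair the samples. Deviations correlated by set (mean 0.13 for other numbers of the same set, -0.12 across sets). Deviations from a group mean cancel out within the group, so the negative value across sets follows from the positive ones within sets. The replicate block called 0 clock genes. The 4 mice a group limit what could be detected, as do the 12 to 31 reads of Dbp.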
